A study of Mus musculus with 42 samples.

Results

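The cytosolic chaperonin CCT, also known as TRiC, was followed through its 8 subunit genes, Tcp1, Cct2, Cct3, Cct4, Cct5, Cct6a, Cct7 and Cct8, in preimplantation mouse embryos. The genes were chosen by symbol, which gave 25 of the 45101 probe sets on the array and 8 of the 18193 genes named by the platform annotation. Of these probe sets, 23 and all 8 genes passed the filter on low values. Fertilized B6D2F1 embryos received a morpholino at the 1-cell stage, and RNA was taken 20 h or 44 h after injection. The 14 groups of 3 arrays were embryos given the Oct4 morpholino (20 h and 44 h), the Sall4 morpholino (20 h and 44 h) or the Nanog morpholino (20 h and 44 h), embryos given a control morpholino without a mouse target (20 h and 44 h in the Nanog experiment, and 44 h beside the Oct4 and Sall4 morpholinos), and uninjected embryos (20 h in each of the 3 experiments, and 44 h both for Nanog and for the shared Oct4 and Sall4 arrays). All embryos were cultured in human tubal fluid with serum supplement, and the labels do not say how many embryos each array holds. A morpholino blocks translation or splicing of its target, and the labels do not say which of these each oligomer does.

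CCT is a barrel of stacked rings in which each ring carries a copy of every subunit. A newly made polypeptide enters the chamber, and ATP hydrolysis closes a built-in lid over it while it folds. Its best known clients are actin and tubulin, and WD40 proteins such as Cdc20 also need it, so dividing cells draw on it for the spindle and the cortex. Prefoldin hands unfolded actin and tubulin to the ring, phosducin-like proteins modulate it, and tubulin cofactors take over tubulin afterwards. Tcp1 encodes the alpha subunit, Cct2 beta, Cct3 gamma, Cct4 delta, Cct5 epsilon, Cct6a zeta, Cct7 eta and Cct8 theta. In yeast the subunits differ in how they use ATP, and human CCT4 and CCT5 can each form rings on their own.

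Levels are the deposited intensities on a linear scale, given for each array or as mean ± SD (n = 3), and differences are log2 values of intensity + 16 with their standard error (SE). A difference passed when limma's adjusted p (Benjamini-Hochberg over all 15502 genes tested) was under 0.05. Array medians ran from 193.1 to 227.3 on the 18 arrays of the Nanog experiment and from 26.1 to 33.3 on the other 24 arrays, so each injection was set against embryos of its own experiment and time. Of the targeted mRNAs, Pou5f1, which encodes Oct4, fell with the Oct4 morpholino at 44 h (2218 ± 260 against 3925 ± 456 with the control morpholino, log2 -0.82, adjusted p = 0.00331). Neither Sall4 (log2 0.21 at 44 h) nor Nanog (-0.61) passed with its own morpholino at either time, nor did Pou5f1 at 20 h. The summed intensity of 9 embryo markers was 12100 to 21586 outside the Nanog experiment and 26501 to 44666 within it. In the same 2 sets of arrays, 6 of 7 cumulus and granulosa cell markers were on the array and summed to 33 to 175 and to 261 to 742, and 6 of 7 blood and stroma markers summed to 100 to 678 and to 910 to 5349. Fewer cells and less RNA per cell cannot be told apart in such bulk samples.

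The promoters of Cct5, Cct2 and Cct3 are shown because Cct5 and Cct2 were the members whose levels fell with the Oct4 morpholino at 44 h, while Cct3 was the only member above 0 there. Each run is the 250 bases upstream of the gene start in RefSeq's annotation of GRCm38.p6, on the gene's own strand, and capitals mark every motif match on either strand.
Cct5 promoter, chr15:31601847-31602096, minus strand: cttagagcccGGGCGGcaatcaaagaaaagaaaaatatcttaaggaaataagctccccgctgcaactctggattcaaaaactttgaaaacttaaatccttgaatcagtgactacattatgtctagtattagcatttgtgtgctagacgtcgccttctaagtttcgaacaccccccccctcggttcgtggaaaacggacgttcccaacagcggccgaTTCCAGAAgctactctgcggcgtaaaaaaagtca
Cct2 promoter, chr10:117063853-117064102, minus strand: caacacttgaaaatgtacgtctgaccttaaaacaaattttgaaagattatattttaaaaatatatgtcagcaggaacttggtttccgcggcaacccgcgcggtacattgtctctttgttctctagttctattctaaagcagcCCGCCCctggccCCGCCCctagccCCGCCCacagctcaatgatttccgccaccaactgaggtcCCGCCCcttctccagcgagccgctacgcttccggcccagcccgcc
Cct3 promoter, chr3:88296885-88297134, plus strand: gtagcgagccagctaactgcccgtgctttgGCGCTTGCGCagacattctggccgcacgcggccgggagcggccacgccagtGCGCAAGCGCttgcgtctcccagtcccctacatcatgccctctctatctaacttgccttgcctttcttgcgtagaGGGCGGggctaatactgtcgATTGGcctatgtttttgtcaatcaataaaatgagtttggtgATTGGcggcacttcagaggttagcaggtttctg
In these runs, GGGCGG or CCGCCC is a GC box, read by Sp-family factors. A GC box was present in 7 of the 7 member promoters with a sequence (Cct4 was not among them) and in 32.7% of 32851 RefSeq promoters of the same length, and the Cct2 promoter held 4 matches. G and C made up 45.2% (Cct5) to 66.4% (Cct7) of the member windows, against a median of 52.4% over all promoters. Only Cct5 was under that median, and the part of base composition in the GC box count was not tested. The outward heat shock pair TTCNNGAA, part of the element bound by heat shock factors, was found in the Cct5 promoter alone among the members, and in 7.2% of all promoters. The inward pair GAANNTTC, which occurred in 6.7% of all promoters, was found in none of the 7. CCAAT, the box bound by NF-Y, was in 4 of 7 member promoters (Tcp1, Cct3, Cct6a and Cct7) against 33.8% of all, and is written ATTGG in the Cct3 run. The palindrome of the factor NRF1 occurred in the Cct3 promoter only (3.7% of all), the ETS motif CCGGAAGT in that of Cct8 (2.9%) and the cAMP response motif TGACGT in that of Cct6a (6.5%). Neither the octamer ATGCAAAT, the motif of the POU family to which Oct4 belongs (1.6% of all), nor TATAAA (12.4%) was found in the 7 windows. These matches are letters in a window and say nothing of binding. No 2 of the motifs shared bases in the printed runs.

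Cct5, the epsilon subunit, was the member that differed most with the Oct4 morpholino at 44 h. It read 817, 994 and 658 on the Oct4 morpholino arrays, against 2496, 2543 and 2310 with the control morpholino. The Oct4 morpholino arrays all lay far below every control array, and uninjected embryos of the same experiment were at 2589, 2548 and 2796. The log2 difference was -1.57 (SE 0.181, 95% interval -1.94 to -1.21, adjusted p = 4.75e-07), and it passed in all 16 other settings tried, between -1.72 and -1.25. The embryo markers, of which Pou5f1 and Sall4 fell, summed to 14644 to 16550 with the Oct4 morpholino against 18422 to 21532 with the control, and their part in the result was not tested. Cct5 is measured by a single probe set, so no second probe set of the gene was at hand.

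Cct2, the beta subunit, was lower by a smaller amount in the same embryos. It read 3166, 4119 and 2947 with the Oct4 morpholino, against 4792, 5015 and 5191 with the control, with no overlap. The log2 difference was -0.56 (SE 0.177, adjusted p = 0.0341). The call was lost under quantile normalization (log2 -0.32, adjusted p = 0.197), when only that experiment was fitted (0.112), without Oct4 morpholino replicate 1 (0.102) or 3 (0.147), and without control replicate 1 (0.0631), 2 (0.0905) or 3 (0.102).

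Of the 8 members, 2 fell and 0 rose with the Oct4 morpholino at 44 h, where 11.5% of all genes tested passed (6.23% lower, 5.26% higher). Cct6a, the zeta subunit, read 3294, 3580 and 3091 against 4329, 4020 and 4436 with the control (log2 -0.36, adjusted p = 0.106). Cct8, the theta subunit, read 1076, 1521 and 1249 against 1524, 1587 and 1789 (log2 -0.36, adjusted p = 0.104). Neither passed against the control morpholino, although their arrays did not overlap. Against uninjected embryos as the reference, both passed (Cct6a log2 -0.47, adjusted p = 0.0232, and Cct8 log2 -0.61, adjusted p = 0.00291), which brought the count to 4. The 11.5% of all genes belongs to the control morpholino reference, and no share is given for the uninjected one. Without Oct4 morpholino replicate 2, Cct8 passed against the control too (log2 -0.49, adjusted p = 0.0357). The arrays of 5 members, Tcp1, Cct2, Cct5, Cct6a and Cct8, were all below every control array, as were those of 14.6% of all genes. Tcp1 (log2 -0.13), Cct4 (-0.15) and Cct7 (-0.33) did not pass, and Cct3, the gamma subunit, was at 4735, 6226 and 5312 against 4598, 4728 and 4837 (log2 0.19, 95% interval -0.17 to 0.55, adjusted p = 0.591). The median over members was -0.34, and over all genes 0.02.

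**Figure D1:**
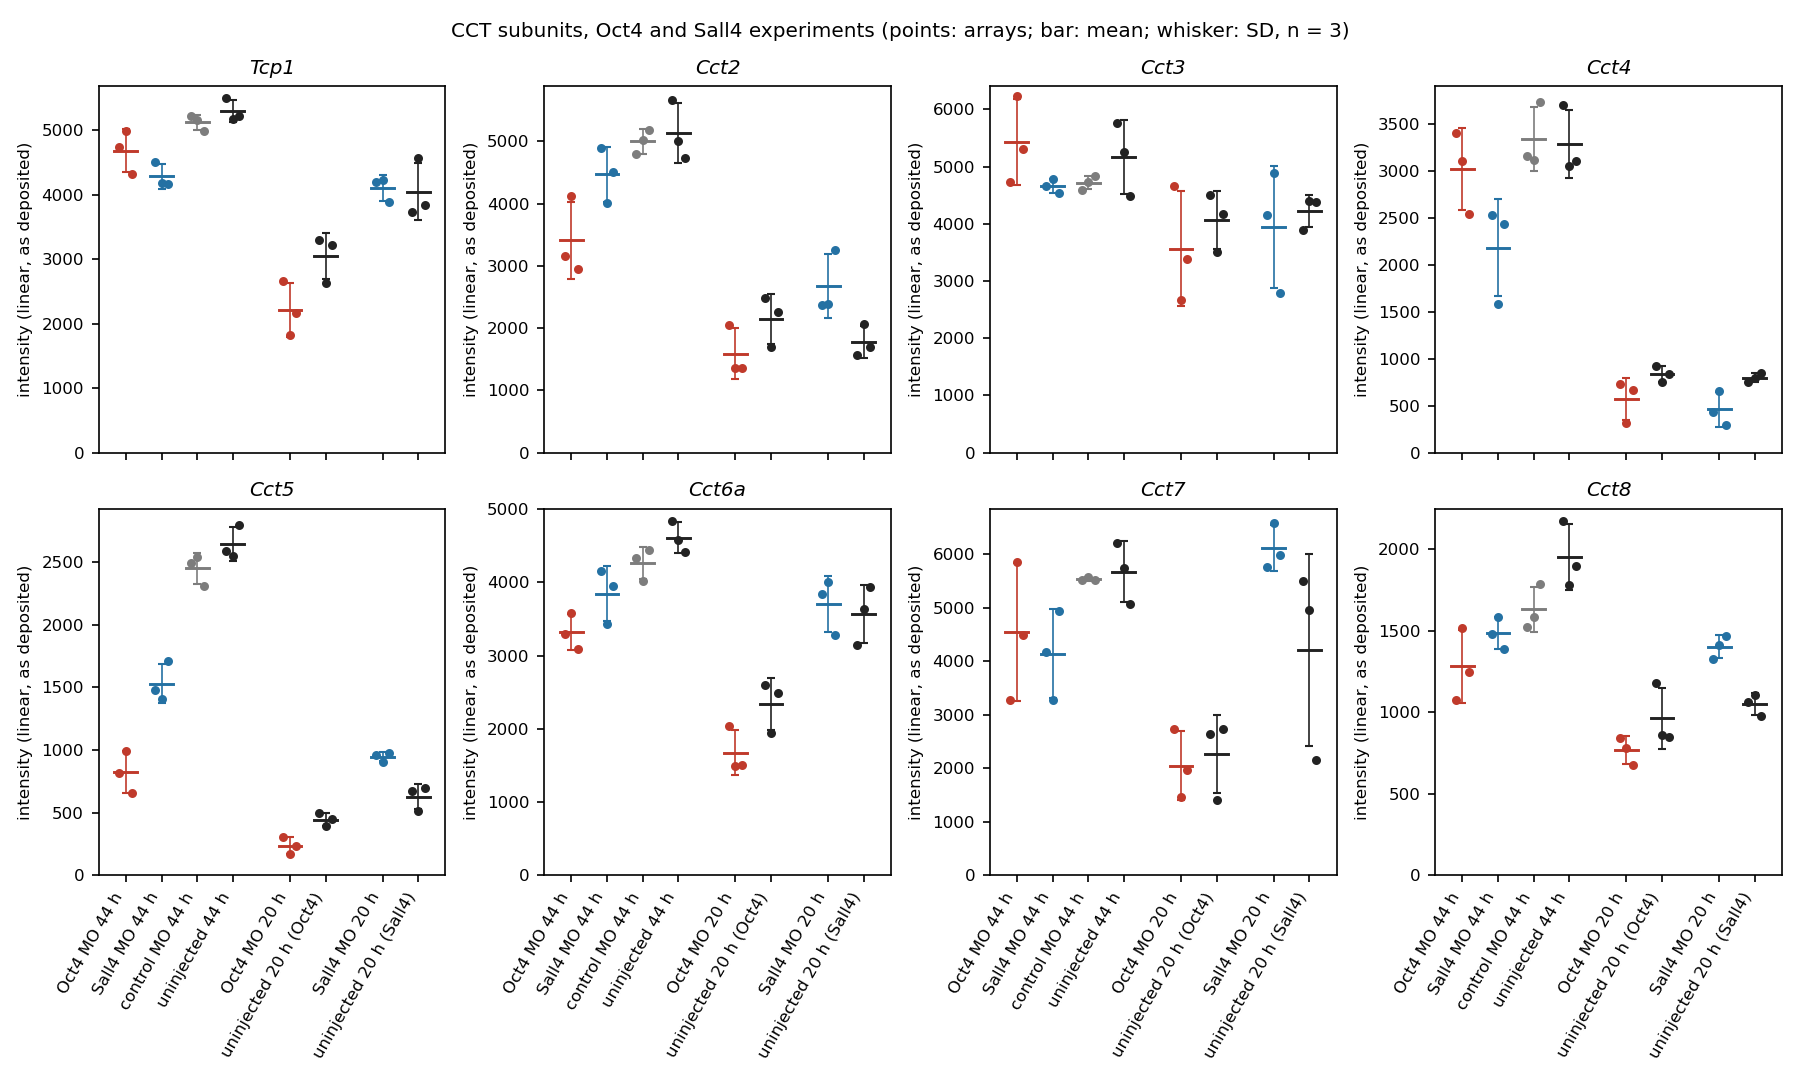
Intensity of the 8 CCT subunit genes on each array of the Oct4 and Sall4 experiments (linear axis from 0; points are arrays, bars means, whiskers SD, n = 3 in each group). Cct5 stands at 658 to 994 with the Oct4 morpholino and at 1406 to 1707 with the Sall4 morpholino at 44 h, both below the control morpholino at 2310 to 2543.

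With the Sall4 morpholino at 44 h, Cct5 was the 1 member of 8 that fell, and 3.92% of all genes passed (2.12% lower, 1.8% higher). It read 1479, 1406 and 1707 against 2496, 2543 and 2310 in the control arrays, which the Oct4 comparison shares, so the comparisons are not independent. These values sit between the Oct4 morpholino and the control, without overlap with either. The log2 difference was -0.68 (SE 0.181, adjusted p = 0.0277). That call was lost under quantile normalization (log2 -0.44, adjusted p = 0.164), when only that experiment was fitted (0.143), without Sall4 morpholino replicate 1 (0.0686) or 2 (0.139), and without control replicate 1 (0.0795), 2 (0.102) or 3 (0.0582). The embryo markers, of which Cdx2 and Pou5f1 fell, summed to 14531 to 18539 with the Sall4 morpholino against 18422 to 21532 with the control, and their part in the result was not tested. The direct comparison of the injections put Cct5 lower with the Oct4 than with the Sall4 morpholino (log2 -0.90, SE 0.181, adjusted p = 0.00164), and it passed in all 15 other settings tried, between -1.04 and -0.75. Cct5 was the 1 member that passed there, where 7.12% of all genes did (3.68% higher, 3.44% lower).

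Cct4, the delta subunit, differed between the injections in the other direction, without passing. It read 2533, 1588 and 2434 with the Sall4 morpholino against 3160, 3123 and 3734 with the control (log2 -0.63, adjusted p = 0.228). The Sall4 morpholino arrays were below each control array, whereas the Oct4 morpholino arrays, at 3407, 3106 and 2545, overlapped with them. The difference between Oct4 and Sall4 morpholino was 0.48 for Cct4 (95% interval -0.08 to 1.04, adjusted p = 0.355). These values are from the brightest Cct4 probe set. On 1415867_at, alone among the Cct4 probe sets, the Oct4 morpholino arrays also lay below every control array, without passing. It read 1873, 2359 and 1759 against 2548, 2940 and 2655. Tcp1, the alpha subunit, was at 4512, 4188 and 4171 with the Sall4 morpholino against 5220, 5166 and 4996 (log2 -0.26, adjusted p = 0.38). Cct7, the eta subunit, was at 4179, 3282 and 4941 against 5514, 5578 and 5520 (log2 -0.44, adjusted p = 0.486). In all, the arrays of 4 members, Tcp1, Cct4, Cct5 and Cct7, lay below every control array, against 12.6% of all genes. The 8 members were between -0.68 and -0.02, with a median of -0.21 (all genes -0.02), and 7 of 8 stayed below 0 under quantile normalization, where the median was -0.05.

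None of the 8 members passed with the Nanog morpholino at 44 h by limma, where 5.03% of all genes did (3.51% higher, 1.52% lower), and none had an unadjusted p under 0.05, where 17% of all genes had one. Cct5 read 6246, 6436 and 7493 with the Nanog morpholino against 7190, 7299 and 6630 with the control, and the groups overlapped. Its log2 difference was -0.07 (95% interval -0.44 to 0.30, adjusted p = 0.933). The difference between the Oct4 effect and the Nanog effect on Cct5 was -1.50 (SE 0.255, 95% interval -2.03 to -0.98, adjusted p = 0.000895), and it passed in all 21 other settings tried. Cct5 was the 1 member of 8 for which the effects differed, beside 2.15% of all genes (0.516% higher, 1.63% lower). Between the Sall4 and the Nanog effect, 0 of 8 members differed by the adjusted p and 1 by the unadjusted p, where 0.755% of all genes passed (0.129% higher, 0.626% lower) and 7.97% were lower by the unadjusted p. That member was Cct5 (log2 -0.61, adjusted p = 0.308).

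The arrays of the Nanog experiment read the members near the bright end of their scale. The median over members was 8347 there, where the 99th percentile of all genes was 8837 to 10417, and 3072 on the other arrays, where it was 3829 to 5161. Whether this changed the size of differences there was not tested. By the brightest probe set of each gene, Cct4 was the only member whose arrays did not overlap, at 4823, 6163 and 6951 with the Nanog morpholino against 7796, 8222 and 7711 with the control (log2 -0.42, 95% interval -0.98 to 0.14, adjusted p = 0.492), beside 9.01% of all genes with every array lower. The other 7 members lay between -0.15 for Cct7 and 0.10 for Cct3. The dimmer Cct7 probe set 1415817_s_at, singled out after its values were seen, did not overlap either and did not pass. It read 5936, 4799 and 6303 with the Nanog morpholino against 8141, 8006 and 7146 with the control.

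**Figure D2:**
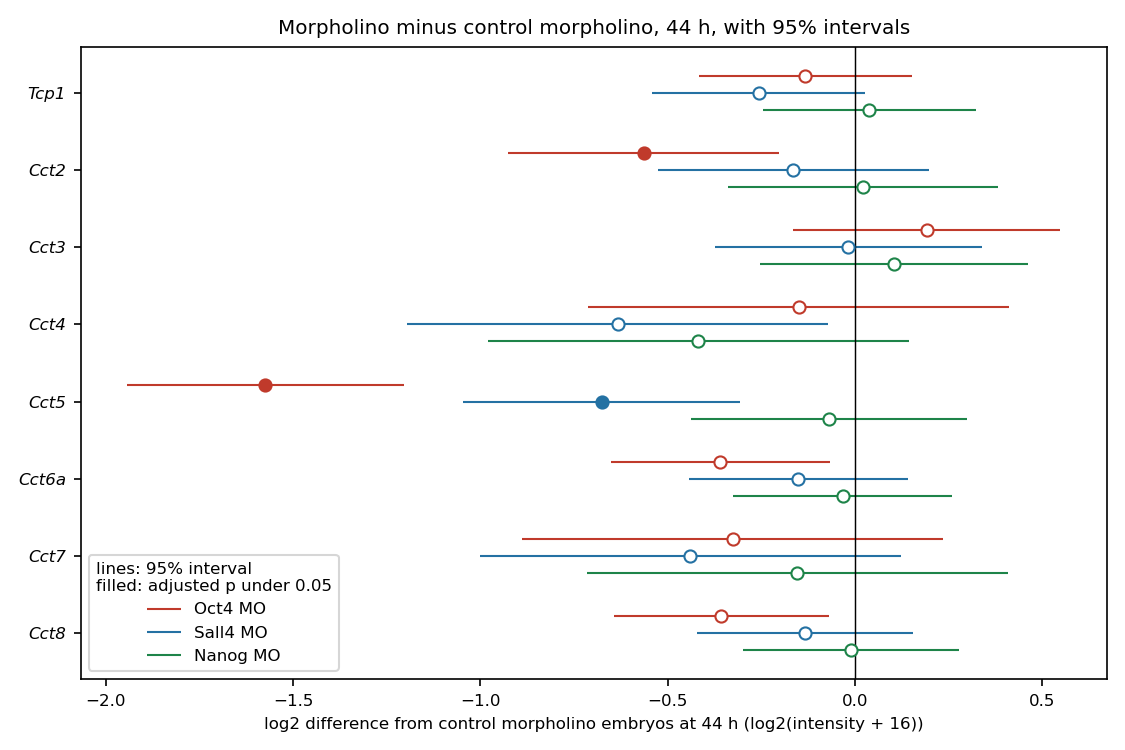
Log2 difference of each CCT subunit gene from control morpholino embryos at 44 h, for the Oct4, Sall4 and Nanog morpholinos (lines are 95% intervals, filled points have an adjusted p under 0.05). Cct5 is at -1.57, -0.68 and -0.07, with the first 2 intervals below 0. The intervals of Cct2, Cct6a and Cct8 with the Oct4 morpholino and of Cct4 with the Sall4 morpholino also lie below 0, and all others reach 0.

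**Figure D3:**
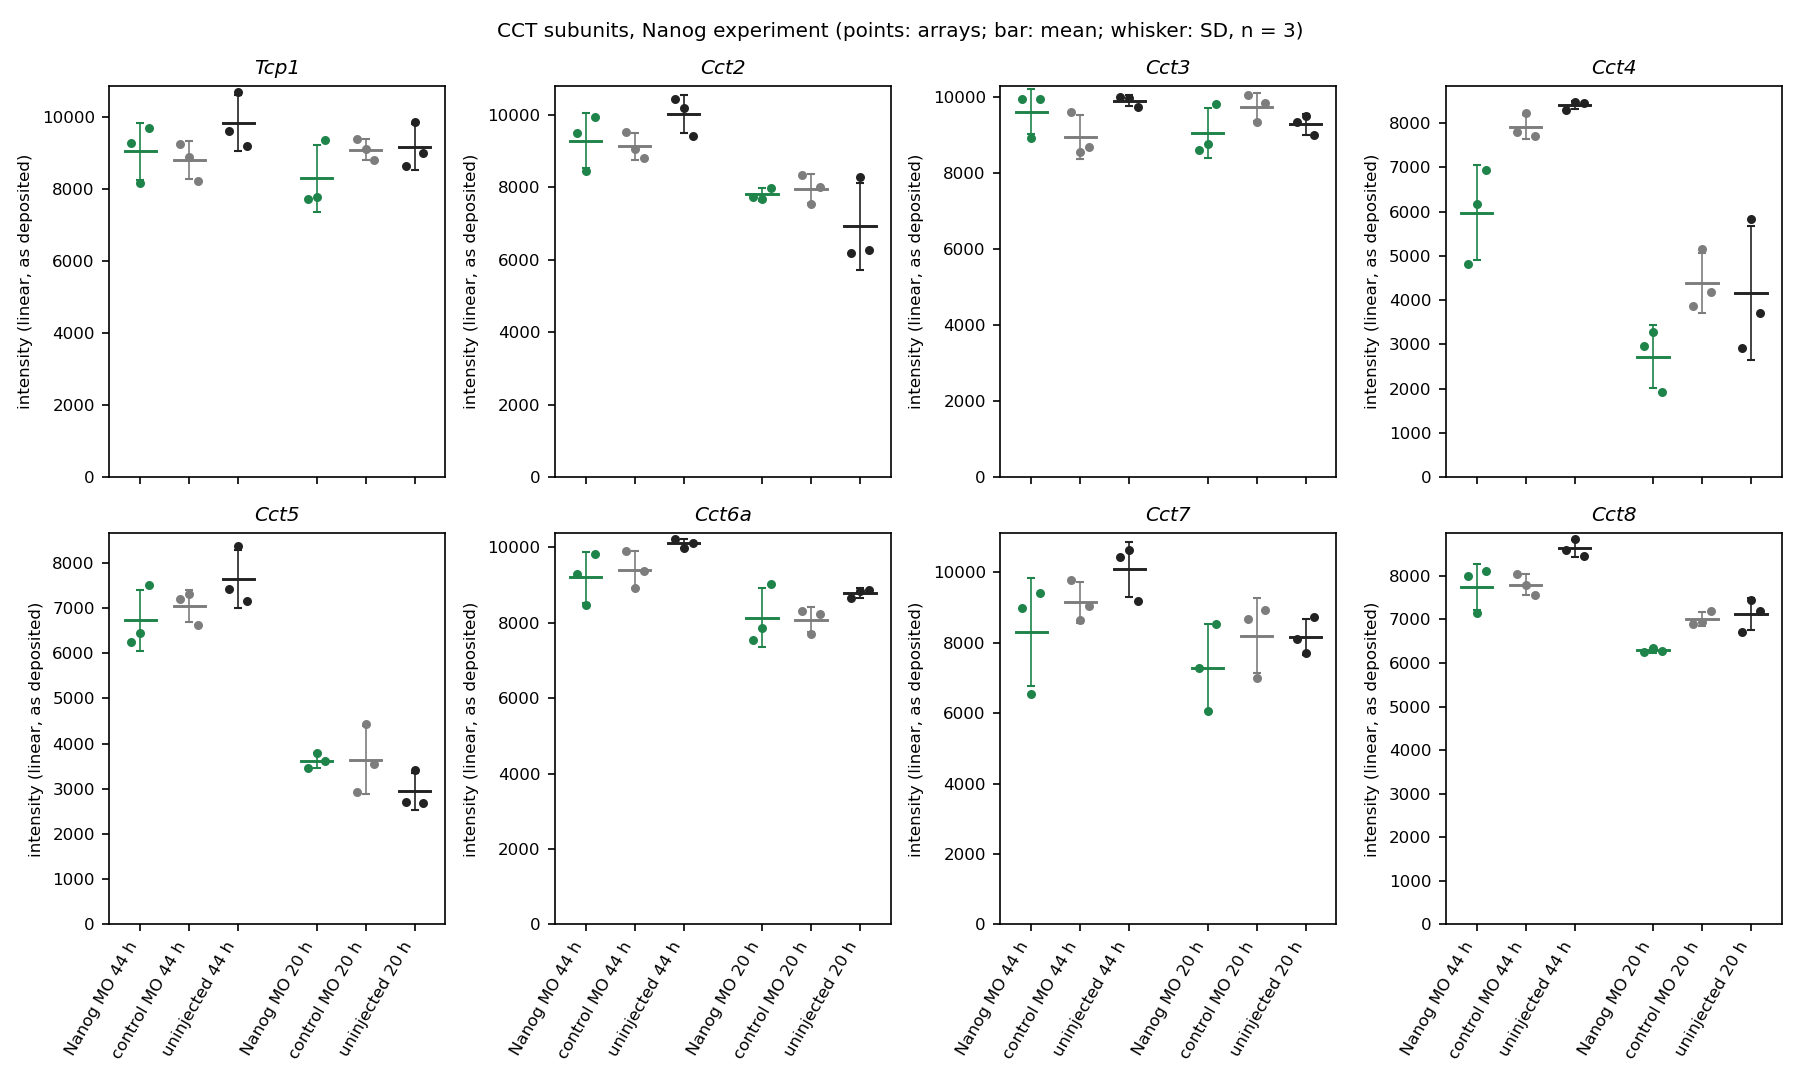
Intensity of the 8 CCT subunit genes on each array of the Nanog experiment (linear axis from 0; points are arrays, bars means, whiskers SD, n = 3 in each group). Cct5 is at 6246 to 8357 in the 44 h groups and at 2689 to 4431 in the 20 h groups, while Tcp1, Cct3 and Cct6a lie close together at both times.

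At 20 h, the Oct4 and Sall4 morpholinos could be set only against uninjected embryos, so the effect of injection itself cannot be told apart from that of the oligomer. With the Oct4 morpholino, Cct5 read 309, 171 and 231 against 494, 391.5 and 448, all lower. The log2 difference was -0.89 (SE 0.181, adjusted p = 0.00474). Cct5 was the 1 member of 8 that fell, with 2.01% of all genes passing (0.174% higher, 1.84% lower). Its call was lost when only that experiment was fitted (0.218), without Oct4 morpholino replicate 2 (log2 -0.69, adjusted p = 0.0751) and without uninjected replicate 1 (0.0534). Tcp1 read 2657, 1823 and 2168 against 3298, 2635 and 3215 (log2 -0.47, adjusted p = 0.0772), and Cct6a had a log2 difference of -0.48 (adjusted p = 0.073). Neither passed. Both passed with a pseudocount of 64 (adjusted p = 0.0413 each), without Oct4 morpholino replicate 1 (0.0138 and 0.0119) and without uninjected replicate 2 (0.0433 and 0.0278). Cct2 passed in 1 of these settings, without Oct4 morpholino replicate 1 (log2 -0.63, adjusted p = 0.0491). The 8 members ranged from -0.89 to -0.13 with a median of -0.45 (all genes -0.02), and Cct4, Cct5 and Cct8 had no overlap, beside 10.9% of all genes with every array lower and 8.53% with every array higher.

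With the Sall4 morpholino at 20 h, 0 of 8 members passed by limma, and 0.239% of all genes did (0.155% higher, 0.0839% lower). By the unadjusted p, 4 members were higher and 1 lower, where 5.23% of all genes were higher and 3.55% lower by the same threshold. Cct5 read 957, 906 and 980 with the Sall4 morpholino against 676, 513 and 694 without (log2 0.59, adjusted p = 0.19). Its arrays lay above all uninjected arrays, the opposite side from the Oct4 morpholino at the same time, and the difference between these effects was not tested. Cct2 read 2376, 2390 and 3262 against 1565, 2071 and 1700 (log2 0.58, adjusted p = 0.19), and Cct8 read 1326, 1415 and 1467 against 1062, 1110 and 976 (log2 0.41, adjusted p = 0.259). Cct7, with a log2 difference of 0.65 (adjusted p = 0.449), had 1 uninjected array at 2160 and the others at 5502 and 4961. Cct4 went the other way at 433, 661 and 294 against 753, 795 and 848 (log2 -0.84, adjusted p = 0.243). Every Sall4 morpholino array was higher for 4 members (7.37% of all genes) and lower for Cct4 (4.97%).

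At 20 h, 0 of 8 members passed with the Nanog morpholino against the control and 1 had an unadjusted p under 0.05 in limma, with 0.619% of all genes passing (0.245% higher, 0.374% lower). By the unadjusted p, 4.73% of all genes were lower. The member with an unadjusted p under 0.05 was Cct4, at 2964, 3291 and 1917 against 3862, 5160 and 4176 (log2 -0.71, adjusted p = 0.376). By the brightest probe set of each gene, the arrays of Cct4 and Cct8 lay below all control arrays, beside 8.07% of all genes. Those of the dimmer Cct7 probe set 1415817_s_at did too, at 4132, 4819 and 4185 against 5371, 5225 and 5786. Cct5 read 3457, 3791 and 3612 against 2933, 4431 and 3554 (log2 0.01, 95% interval -0.36 to 0.38). The Nanog effect at 44 h did not differ from that at 20 h for any of the 8 members by limma, adjusted or unadjusted, where 0.819% of all genes passed (0.6% higher, 0.219% lower), or 11% by the unadjusted p. For Cct4 this difference was 0.30 (95% interval -0.50 to 1.09).

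The control morpholino against uninjected embryos gave 0 of 8 members by the adjusted or the unadjusted p in each of the 3 settings, where 0.0903% (Nanog experiment, 20 h), 0.103% (Oct4 and Sall4 experiment, 44 h) and 0.445% (Nanog experiment, 44 h) of all genes passed in limma. By direction these were 0.0581% higher and 0.0323% lower, 0.071% higher and 0.0323% lower, and 0.194% higher and 0.252% lower. By the unadjusted p the shares of all genes were 5.92%, 5.53% and 10.4%. For Cct5 the log2 differences were 0.29, -0.11 and -0.12 in that order. In the Nanog experiment at 44 h all 8 members lay below 0, between -0.16 and -0.09, and the median over all genes was -0.09. There the arrays of Cct3, Cct4, Cct6a and Cct8 were all below the uninjected ones, beside 14.5% of all genes. The same held for Cct5 at 44 h beside the Oct4 and Sall4 morpholinos (5.99% of all genes) and for Cct6a in the Nanog experiment at 20 h (4.8%).

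Between 20 h and 44 h, within the Nanog experiment, Cct5 and Cct4 rose in each of the 3 kinds of embryos. In uninjected embryos Cct5 was at 7426, 8357 and 7141 at 44 h, against 2714, 3419 and 2689 at 20 h (log2 1.38, SE 0.181, adjusted p = 8.01e-07). With the control morpholino it was at 7190, 7299 and 6630 against 2933, 4431 and 3554 (log2 0.97, adjusted p = 0.000152). In Nanog morpholino embryos it was at 6246, 6436 and 7493 against 3457, 3791 and 3612 (log2 0.89, adjusted p = 0.000606). The times did not overlap in any of the 3, and these rises passed in all 15 other settings tried for each.

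Cct4 was at 8298, 8481 and 8453 at 44 h against 2916, 5839 and 3717 at 20 h in uninjected embryos (log2 1.07, SE 0.275, adjusted p = 0.00358, passing in 15 of 15 other settings). It also rose with the control morpholino, where the log2 difference was 0.85 (adjusted p = 0.0219), and with the Nanog morpholino, where it was 1.15 (adjusted p = 0.0029). The first of these was lost without control morpholino replicate 2 of 44 h (0.0639), replicate 1 of 20 h (0.0831) or replicate 3 of 20 h (0.0669). The Nanog morpholino call was lost on the mean of all Cct4 probe sets (log2 0.38, adjusted p = 0.233). Cct2 was at 10445, 10186 and 9422 against 6189, 8288 and 6270 in uninjected embryos (log2 0.55, adjusted p = 0.0212) and did not pass in the injected ones (0.20 and 0.25). Its call was lost without uninjected replicate 1 (0.0674) or 2 (0.0587) of 44 h and without replicate 1 (0.0932) or 3 (0.0873) of 20 h.

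In number, 3 of 8 members rose over time in uninjected embryos, where 25.8% of all genes passed (9.46% higher, 16.4% lower). With the control morpholino 2 of 8 rose (23.5% of all genes, 7.25% higher, 16.3% lower), and with the Nanog morpholino 2 of 8 (20.1%, 8.16% higher, 11.9% lower), and 0 of 8 fell in each. By the brightest probe set of each gene, the remaining members, Tcp1, Cct3, Cct6a, Cct7 and Cct8, lay between -0.12 and 0.30, and in uninjected embryos 7 of 8 members had every 44 h array above every 20 h array (18.2% of all genes). The dimmer Cct7 probe set 1415817_s_at had means of 8461 at 44 h against 4468 at 20 h in uninjected embryos. Its means were 7765 against 5461 with the control morpholino and 5679 against 4379 with the Nanog morpholino. Under quantile normalization 5 of 8 passed in each of the 3 kinds of embryos, with Cct6a and Cct8 added in uninjected embryos and Cct2, Cct6a and Cct8 in the injected ones. The shares of all genes above are for the values as deposited, and none is given for quantile normalization. The 44 h and 20 h arrays of the Oct4 and Sall4 experiments carry different experiment labels and were not tested against each other. Side by side, Cct5 stood at 2644 ± 133 in uninjected embryos at 44 h, against 444.5 ± 51.4 in the Oct4 and 628 ± 99.5 in the Sall4 experiment at 20 h, and Cct4 stood at 3290 ± 362 against 839 ± 88.4 and 799 ± 47.7.

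**Figure D4:**
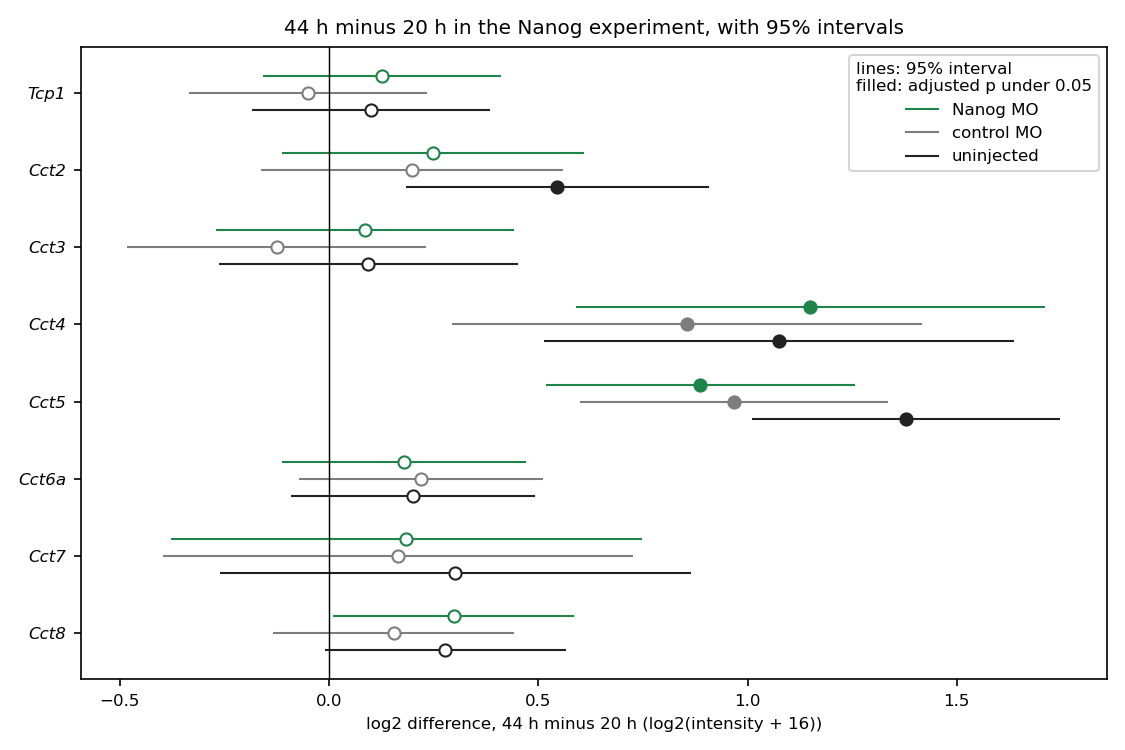
Log2 difference between 44 h and 20 h of each CCT subunit gene in the Nanog experiment, for Nanog morpholino, control morpholino and uninjected embryos (lines are 95% intervals, filled points have an adjusted p under 0.05). Cct5 (0.89, 0.97 and 1.38) and Cct4 (1.15, 0.85 and 1.07) are the members filled in all 3, and Cct2 is filled in uninjected embryos only (0.55).

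Several members had more than 1 probe set, and these did not always move alike. Each probe set was fitted on its own among 35355 tested. The 23 member probe sets read 8 genes, and many of them read Cct4 or Cct3, so they are not independent. At 44 h, 2 of the 23 member probe sets passed with the Nanog morpholino, both lower and both of Cct4, where 2.31% of all probe sets passed as lower. They were singled out after their values were seen. The probe set 1415868_at read 146, 115 and 1711 with the Nanog morpholino against 2319, 2733 and 2966 with the control (log2 -3.01, SE 0.628, adjusted p = 0.00384). The probe set 1430034_at read 73.1, 60.3 and 239 against 742, 808 and 797 (log2 -2.73, SE 0.716, adjusted p = 0.0201). The same Nanog morpholino array was the highest of its group on both, and none reached the control arrays. Apart from that array, the Nanog morpholino readings of both were under the array medians of that experiment (193.1 to 227.3). The size of these differences, and of the average over all Cct4 probe sets, therefore rests in part on low readings. The other 5 Cct4 probe sets were between -0.55 and -0.41 and did not pass. Averaging all 7 put Cct4 past the threshold with the Nanog morpholino (log2 -1.17, adjusted p = 0.00115), against -0.42 for its brightest probe set, and the difference between the Oct4 and the Nanog effect on Cct4 passed in that setting as well (log2 1.15, adjusted p = 0.0477).

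The same pair also stood apart over time. In uninjected embryos 1415868_at was at 4196, 4025 and 2640 at 44 h, against 1119, 471 and 827 at 20 h (log2 2.20, adjusted p = 0.00973), and 1430034_at had a log2 difference of 2.91 (adjusted p = 0.00287). The 20 h readings of 1430034_at in these embryos, 163, 51.5 and 106, were under the array medians of that experiment, so the size of its difference is uncertain. In Nanog morpholino embryos the differences were -1.30 (adjusted p = 0.16) and -1.82 (adjusted p = 0.0759), while the brighter 5 rose by 1.09 to 1.20 in those embryos. Among control morpholino embryos at 20 h, 1430034_at was uneven, at 1596, 61.3 and 149. The stretch of transcript read by each probe set was not examined here. Over time in uninjected embryos 11 of 23 member probe sets were higher, beside 10.1% of all probe sets, and 6 of 23 with the control morpholino (8.33%) and with the Nanog morpholino (8.09%). These counts include repeated readings of the same gene, above all of Cct4, and are not counts of genes.

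**Figure D5:**
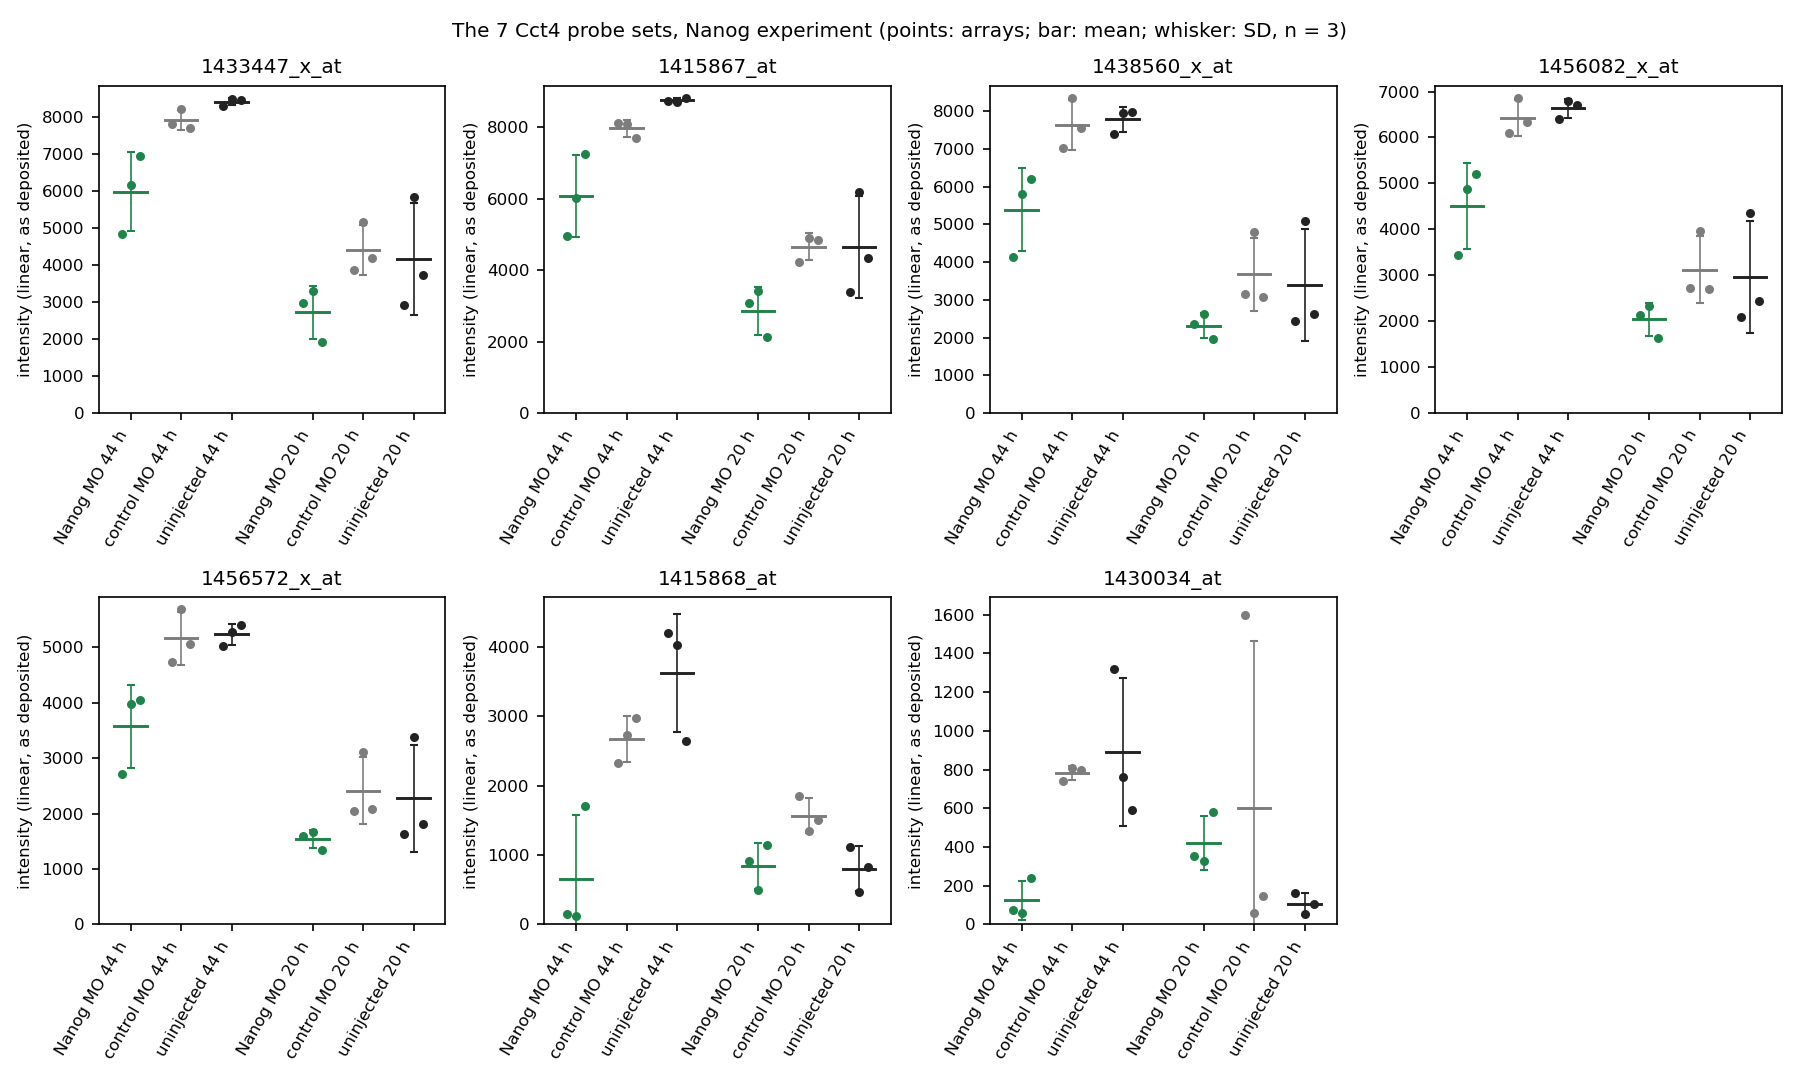
Intensity of the 7 Cct4 probe sets on each array of the Nanog experiment (linear axis from 0; points are arrays, bars means, whiskers SD, n = 3 in each group). With the Nanog morpholino at 44 h, 1415868_at (115 to 1711) and 1430034_at (60.3 to 239) lie below all control arrays of that time.

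With the Oct4 morpholino at 44 h, 4 of 23 member probe sets passed, all lower, where 5.11% of all probe sets did so. Beside the single Cct5 probe set they were 2 of 3 for Cct2 and 1 of 2 for Cct7. For Cct2, 1416037_a_at read 1314, 2199 and 1478 against 2712, 3099 and 3188 (log2 -0.88, adjusted p = 0.00386), while 1433534_a_at, at -0.36, did not pass (adjusted p = 0.262). For Cct7, 1415817_s_at read 558, 2432 and 1636 against 2760, 2573 and 3268 (log2 -1.11, adjusted p = 0.0461), and the brighter 1415816_at was at -0.33 (adjusted p = 0.595). For Cct4, 1415867_at passed in 2 comparisons in which the other 6 probe sets of the gene did not. It read 187, 88.5 and 123 with the Oct4 morpholino at 20 h against 465, 285 and 405 in uninjected embryos (log2 -1.45, adjusted p = 0.00186). It read 1941, 870 and 1461 with the Sall4 morpholino at 44 h against 2548, 2940 and 2655 with the control (log2 -0.99, adjusted p = 0.0329). In these comparisons 2 of 23 member probe sets passed, 1 each of Cct4 and Cct5, beside 1.03% (Oct4, 20 h) and 1.58% (Sall4, 44 h) of all probe sets as lower. The probe sets named here were picked after their values were seen.

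Across the 14 group means, each set relative to the mean of its own experiment and time, Cct2 and Cct5 followed each other most closely of the 28 member pairs (Pearson r = 0.924, n = 14 groups). Cct3 had r = -0.14 against Cct2 and -0.12 against Cct5, and Cct4 had r = -0.07 and 0.15 with them. These points share arrays and controls and are a description. The mean over the 8 members was lowest with the Oct4 morpholino, at -0.22 at 20 h and -0.25 at 44 h on this log2 scale. With only 2 groups in the Oct4 experiment at 20 h, the uninjected embryos take the mirror value there, and at 44 h beside the Oct4 and Sall4 morpholinos uninjected embryos were at 0.24. Of 15494 other genes, those most like the mean of the members were Fbl (r = 0.987), which encodes the nucleolar methyltransferase fibrillarin, Rpl11 (0.980), a ribosomal protein, Prc1 (0.977), a spindle midzone protein, Eif4g2 (0.973), a translation factor, and Idh3g (0.969), a subunit of mitochondrial isocitrate dehydrogenase. They were chosen for this likeness over the same group means, so their own differences are not given.

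Among the clients of CCT, of 13 actin and tubulin genes tested (15 listed), 6 rose and 1 fell with the Oct4 morpholino at 44 h, where 5.26% of all genes rose and 6.23% fell. Tubb3, a beta-tubulin typical of neurons, was at 1364 against 163 in the control mean (log2 3.10, adjusted p = 0.00244), Tuba1a at 2762 against 626 (log2 1.99, adjusted p = 0.00554) and Tubb2b at 738 against 177 (log2 1.97, adjusted p = 0.0464). Tuba4a, Tubb2a and Tubb6 also rose, and Actb, cytoplasmic beta-actin, fell. With the Sall4 morpholino 0 rose and 1 fell, namely Actb at 3008 against 5204 (log2 -0.81, adjusted p = 0.0172), where 1.8% of all genes rose and 2.12% fell. For the Nanog morpholino 1 rose and 0 fell, namely Tubb3 at 2656 against 99.2 (log2 4.84, adjusted p = 5.14e-05), where 3.51% of all genes rose and 1.52% fell. At 20 h none of the 13 passed with any of the 3 morpholinos, where 2.01% (Oct4), 0.239% (Sall4) and 0.619% (Nanog) of all genes did. In uninjected embryos, 1 rose (Actg1) and 5 fell between 20 h and 44 h, where 9.46% of all genes rose and 16.4% fell. Actg1 also rose with the control and the Nanog morpholino, where 3 and 2 of the 13 fell. Of all genes, 7.25% and 8.16% rose and 16.3% and 11.9% fell, in the same order. Tubb3 in uninjected embryos was at 99.1 at 44 h, against 2768 at 20 h (log2 -4.68, adjusted p = 3.91e-06), while Cct4 and Cct5 rose. The low Tubb3 means of the Nanog experiment, 99.2 and 99.1, were under the array medians there (193.1 to 227.3). The size of the Tubb3 differences in that experiment therefore rests on low readings.

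Among the partner proteins, of the 6 prefoldin subunits, 0 passed with any morpholino against its control or uninjected embryos. Between the Oct4 and the Sall4 morpholino at 44 h, Vbp1 was higher (1270 against 748, log2 0.73, adjusted p = 0.04), as were 3.68% of all genes. Of 4 phosducin-like genes tested (5 listed), Pdcl rose with the Oct4 morpholino at 44 h (1589 against 765, log2 1.05, adjusted p = 0.00313), while Pdcl3 (log2 -1.36, adjusted p = 0.0473) and Txndc9 (log2 -0.53, adjusted p = 0.038) fell. In that comparison 5.26% of all genes rose and 6.23% fell. Pdcl3 also fell with the Nanog morpholino at 44 h (619 against 1484, log2 -1.78, adjusted p = 0.0166), as did 1.52% of all genes. Pdc was at 7.58 with the Oct4 morpholino at 20 h against 106 in uninjected embryos (adjusted p = 0.00314), and no fold is given because the first value is under the level of the filter (71.15). In that comparison 1.84% of all genes were lower. None of the 6 tubulin folding cofactors or the 7 Hsp70 and Hsp90 partners tested (9 listed) passed with any morpholino in these comparisons. Between the Oct4 and the Sall4 morpholino at 44 h, the cofactor Tbcd was lower (246 against 607, log2 -1.29, adjusted p = 0.0453), as were 3.44% of all genes. Of 12 WD40 and other clients, Fbxw7 rose (log2 1.50, adjusted p = 0.0211) and Hdac3 fell (log2 -2.34, adjusted p = 0.0126) with the Oct4 morpholino at 44 h, where 11.5% of all genes passed. With the other morpholinos 0 of the 12 passed. Of 6 other chaperonin genes, Mkks, a chaperonin-like protein of the Bardet-Biedl complex, fell with the Sall4 morpholino at 44 h (346 against 978, log2 -1.51, adjusted p = 0.00095), as did 2.12% of all genes. Over time in uninjected embryos, where 9.46% of all genes rose, 3 of these 6 rose, Cct6b (log2 2.52, adjusted p = 0.0135), a second zeta subunit known from testis, and the mitochondrial pair Hspe1 (0.76, adjusted p = 0.0121) and Hspd1 (0.34, adjusted p = 0.0351), beside the prefoldin subunits Pfdn1 (0.89, adjusted p = 0.0441) and Pfdn5 (0.73, adjusted p = 0.00499). Of the 6 other chaperonins, 1 (Cct6b) rose over time with the control morpholino (7.25% of all genes) and 0 with the Nanog morpholino (8.16%). Among tubulin cofactors in uninjected embryos, Tbce rose (log2 1.12, adjusted p = 0.0388), while Tbca (-0.62, adjusted p = 0.0327) and Tbcc (-1.71, adjusted p = 0.00642) fell over time. Over the same time 9.46% of all genes rose and 16.4% fell.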

How the data were processed

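Arrays measured RNA of mouse embryos in 14 groups of 3, grouped by title. RNA was isolated with a PicoPure kit, amplified with NuGEN WT-Ovation reagents and labelled with biotin, per the labels' protocols. The authors deposited 1 intensity per probe set and array on a linear scale, and the sources used here do not say how they were computed or normalized. The number of arrays limits the precision. Replicates are biological by their titles. No array copied another (highest correlation of any pair 0.964).

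The platform annotation named the probe sets, with 34945 carrying 1 symbol, 932 several and 9160 none, and 64 control probe sets were left out. For a gene the brightest probe set by mean over all arrays was used, as log2(intensity + 16), which understates changes of dim genes. Genes whose mean in at least 1 group exceeded the table median (71.15) were tested, 15502 of 18193. A single limma model (limma 3.58.1, R 4.3.3) of all 42 arrays with 1 coefficient for each group and 28 residual degrees of freedom gave 13 comparisons and 3 comparisons of effects, two-sided, with Benjamini-Hochberg adjustment over all genes and a threshold of 0.05. With 3 arrays against 3, an exact permutation test cannot go below p = 0.1. The model was tested on simulated data. The members and lists were chosen with earlier results of these data known. Named genes were the members, at most the 3 largest passing changes of each list and comparison, the targeted genes, and the 5 genes most like the member mean. Other genes behind small counts were named after their values were seen. Alternatives were pseudocounts of 1 and 64, other filters, 2 scalings, mean of probe sets, experiment alone, replicate block, uninjected reference and single arrays left out, and, chosen after seeing the data, a fit of each probe set on its own. Promoters came from RefSeq (GRCm38.p6). Figures used Python 3.11.15, numpy 2.4.6, pandas 2.3.3 and matplotlib 3.10.9.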

Additional observations from a re-analysis of the deposited data

Results flagged for a closer look

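The effect of the Oct4 morpholino on Cct5 at 44 h differed from that of the Nanog morpholino by -1.50 on the log2 scale (adjusted p = 0.000895, limma test of the difference itself). Cct5 was lower with the Oct4 morpholino in 3 of 3 arrays than in any control array of its experiment, and the Nanog morpholino arrays overlapped with their controls. The Nanog arrays read Cct5 at higher intensities, and the part of this in the difference was not tested.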

How the results depend on the processing

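Repeated under the alternatives, the number of members that passed stayed within 1.5 times its value 248 times, was higher 9 times and lower 21 times, and no member that passed changed direction. The 248 include counts of 0 that stayed 0 and changes from 3 to 2. The shares of all genes given above belong to the main fit, and none is given for these alternatives. With the Oct4 morpholino at 20 h the count was 1, against 3 with a pseudocount of 64 and 0 with that experiment fitted alone, and 0 to 4 with single arrays left out. With the Oct4 morpholino at 44 h it was 2, against 1 under quantile normalization, 1 with the experiment alone, 4 against uninjected embryos, and 1 to 3 with single arrays left out. With the Sall4 morpholino at 44 h it was 1, against 0 under quantile normalization, 0 with the experiment alone and 0 to 1 with single arrays left out. With the Nanog morpholino at 44 h it was 0, and 1 on the mean of all probe sets. Over time it was 3, 2 and 2 in uninjected, control morpholino and Nanog morpholino embryos, and 5 in each under quantile normalization. On the mean of all probe sets it was 1 over time with the Nanog morpholino, and with single arrays left out it was 2 to 3, 1 to 2 and 2 to 2. For the difference between the Oct4 and the Nanog effect it was 1, and 2 on the mean of all probe sets. Fitting each probe set on its own, chosen after seeing the data, left the number of members whose brightest probe set passed as it was in all 16 comparisons. Centring array medians moved the median of all genes by over 0.1, to -0.09 with the Sall4 morpholino at 20 h (0.03 as deposited), to -0.10 with the Nanog morpholino at 44 h (0.05) and to -0.04 for the difference between the Nanog effects (0.10). Members below 0 were then 4, 8 and 4 of 8, against 2, 5 and 2 as deposited. The differences of the Oct4 and of the Sall4 effect from the Nanog effect at 44 h also moved by over 0.1. Their medians over all genes became 0.06 and 0.08, with 6 and 5 of 8 members below 0. As deposited, the members lay between -1.50 and 0.27 in the former and between -0.61 and -0.12 in the latter. Same-numbered arrays correlated at -0.047 to 0.138 (median 0.023, 42 pairs) and only 1 of 14 pairs of groups had all values above 0.1, namely control morpholino and uninjected embryos of the Nanog experiment at 20 h. With the replicate number as a replicate block the counts kept their values in all 16 comparisons (for example 2 with the Oct4 morpholino at 44 h), so the block changed no call. The brightest probe set of each member read above the array median on every array, the lowest value being 171 for Cct5. Passing the filter takes only 1 group above the table median, so a probe set that passed can be dim elsewhere. The 2 dim Cct4 probe sets read under 100 on some arrays, as did 1415867_at of Cct4 (lowest 88.5). Among the 23 tested probe sets, 1439679_at of Cct3 read as low as 2.72.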
